A study of Mus musculus with 14 samples.

Results

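Open chromatin of hippocampal neurons from mice killed on the day of fear conditioning was compared between 3 Early libraries and 4 Basal libraries, over 172024 of the 191271 genomic regions that the authors listed. A region was compared when its mean over all 14 libraries of the study was at least 0.83 RPKM, a unit of reads that allows for the length of the region and for the library's size. The regions just inside and just outside that limit averaged 0.8300108 and 0.8299958 RPKM. All 172024 regions passed by this one rule, and the 19247 others (10.1% of the list) were not tested.

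ATAC-seq uses a transposase that inserts adapters where DNA is accessible. All groups came from ArcCreERT2 mice crossed with R26R-STOP-floxed-eYFP mice (a yellow fluorescent protein reporter), of genotype +/+, and all received foot shock on day 0 after 1 dose of 4-Hydroxytamoxifen, given 1 h before contextual fear conditioning. Early (n = 3) and Basal (n = 4) carry one treatment label, with no recall and collection on day 0, and the protocol gives collection at 1.5 to 2 h after the task for mice killed that day. Late (n = 4) had no recall and was collected on day 5. Reactivated (n = 3) had recall on day 5, and its labels give days 5, 6 and 7 for collection. Only the titles separate Early from Basal, so the labels do not say whether the sorted population, the handling or something else sets Basal apart, and a difference between them cannot be read as a course in time. Hippocampi of 10 to 12 mice were pooled to give 10000 nuclei per condition, and nuclei were stained for NeuN, Arc and GFP and sorted. The Cre is expressed where the Arc gene is active, so the reporter can mark only cells in which Arc was on around the time of the drug. The design text speaks of 3 biological replicates where 4 Basal libraries are listed, and p-values therefore measure the spread between libraries, part of which may be technical. The table gives no gene names, so the neuronal label could not be checked against marker genes.

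Accessible regions are stretches of DNA free of tightly packed nucleosomes, and in neurons they include promoters, enhancers and insulator sites. Broad regions are often promoters of active genes, whereas narrow, scattered ones are more often distal elements. Neuronal activity switches on immediate early genes such as Arc and Fos within minutes, and Fos and its partners bind many enhancers and open chromatin there. Mammalian chromosomes also alternate between stretches rich in open sites and stretches poor in them, and mouse chromosomes are numbered from the centromere, so the last part of a numbered chromosome is its telomeric end.

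Read totals behind the RPKM scale were alike, 54257745 to 54261749 in Early and 54266315 to 54269492 in Basal. The share of reads that lay in listed regions was not. It was 13.8%, 27.8% and 18.1% in Early replicates 1 to 3, and 19.3%, 14.2%, 13.2% and 16.1% in Basal replicates 1 to 4. Early replicate 2 thus stood above the 6 other libraries, and Early replicate 1 within the Basal range. The median tested region held 30, 52 and 36 reads in Early and 35, 29, 27 and 31 reads in Basal, which sets the counting error behind each value. Calls and fold changes on the deposited scale are therefore given again after each column was divided by its median, and the counts with this share as a covariate are among the alternatives.

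Over the whole set, more regions were called higher than lower in Early on the deposited scale, and the balance depended on the scale. Limma (adjusted p under 0.05, Benjamini-Hochberg) called 18824 regions higher (10.9%) and 2467 lower (1.43%). After division by column medians it called 14139 higher (8.22%) and 11381 lower (6.62%). Of the regions called higher, 13910 were called on both scales, and of those called lower, 2465. No region called higher on the deposited scale was called lower after division. The 3 Early values lay above all 4 Basal values at 27085 regions (15.7%) and below them at 6377 (3.71%), and after division at 21389 (12.4%) and 19269 (11.2%).

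The median log2(RPKM + 0.5) over tested regions averaged 0.91 ± 0.30 in Early and 0.68 ± 0.12 in Basal (SD, n = 3 and 4). That difference of 0.23 had an exact two-sided permutation p of 0.229 (adjusted 0.457 over 14 such comparisons). The 14 count each contrast on both scales, so they are not separate, and division by column medians removes this difference by construction. With 3 libraries against 4 the smallest two-sided p is 0.0571, so none of these tests on 1 value per library can pass 0.05.

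The Early libraries differed among themselves in how they stood to Basal. Early replicate 1 was above all 4 Basal libraries at 41422 regions (24.1%) and below all of them at 43827 (25.5%). Early replicate 2 was above at 110413 (64.2%) and below at 18784 (10.9%), and Early replicate 3 above at 66664 (38.8%) and below at 24892 (14.5%). So on the deposited scale replicates 2 and 3 were above Basal at more regions than below it, and replicate 1 was not. After division by column medians the shares above were 26.6%, 34.8% and 27.5% and those below 27.1%, 31.3% and 26.0%, so the 3 libraries were then more alike, with replicate 2 highest on both counts. Without Early replicate 2 the calls fell to 773 higher and 458 lower on the deposited scale.

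By width, the share called higher was 12.4% in regions of middle size and 2.83% in the widest. Among the 80540 regions of 400 up to 1000 bases, those of middle size, 1.07% were called lower, with a median log2 fold change of 0.27. Among the 2580 regions of 2000 bases or more, 1.20% were called lower, with a median of 0.09. The 13316 regions under 200 bases had 7.18% higher and 3.11% lower, with a median of 0.06. Classes between these had 10.9% (200 up to 400 bases) and 9.36% (1000 up to 2000 bases) higher. The order of the narrower classes changed between fits. Leaving out Early replicate 2, the share called higher was 0.518% under 200 bases, 0.523% at 200 up to 400 bases, 0.499% at 400 up to 1000 bases and 0% at 2000 bases or more. With the 7 libraries alone these shares were 3.79%, 4.14%, 3.45% and 0.233%, and with a replicate block 5.47%, 7.12%, 6.59% and 0.775%. With limma voom on the recovered reads the share was 5.02% under 200 bases and 6.67% at 2000 bases or more, so the widest class was then not the lowest. All such shares are descriptions, since regions of one library are not replicates of a condition.

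Division by column medians lowered the median of every width class, and raised the share called lower most in wide regions. Of regions of 2000 bases or more, 408 (15.8%) were then called lower and 63 (2.44%) higher, with a median of -0.16. Regions of 1000 up to 2000 bases then had 9.75% lower and 8.01% higher, and those of 400 up to 1000 bases 5.56% lower and 9.59% higher. Regions under 200 bases had 7.46% lower and 4.72% higher, with a median of -0.17, so a negative median was not particular to wide regions. Relative to the library's own autosomal median on the log2 scale, regions of 2000 bases or more stood at 0.15, 0.29 and 0.26 in Early and between 0.33 and 0.53 in Basal. The Early and Basal values did not overlap there. In RPKM the same regions had medians of 1.24, 2.37 and 1.66 in Early and 2.07, 1.44, 1.35 and 1.65 in Basal, where Early replicate 2 was highest and Early replicate 1 lowest. Without Early replicate 2 the median log2 fold change of these widest regions was -0.11 on the deposited scale and -0.19 after division.

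The fold change of the widest regions varied little with level. Among regions of 400 up to 1000 bases, the median log2 fold change was 0.08 in the lowest 20% and 0.46 in the highest 20% by level in Late and Reactivated, where 20.8% were called higher. Among regions of 2000 bases or more it was 0.11 in the lowest and 0.08 in the highest 20%, where 1.21% were called higher. Regions under 200 bases ran between -0.18 in the lowest and 0.38 in the highest 20%. Broad minus narrow, as 1 value per library, was 0.05 ± 0.22 in Early and 0.06 ± 0.11 in Basal (SD, n = 3 and 4), a difference of -0.01 (exact permutation p = 0.971, adjusted 1.00). This contrast sets the widest against the narrowest class and leaves out the middle ones.

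The share called higher was larger in more isolated regions. It was 5.83% for regions with a listed neighbour under 500 bases away, and 9.83%, 11.3% and 13.9% in the classes of 500 up to 2000, 2000 up to 10000 and 10000 up to 50000 bases. It was 16.6% among the 853 regions with none within 50000 bases. The share called lower was 2.35% in the closest and 3.05% in the most isolated class, and between 1.29% and 1.48% in the other 3. Median log2 fold changes were 0.08 in the closest class and 0.22 to 0.27 in the others. After division the share called higher was 4.12% in the closest and 12.9% in the most isolated class, and the share called lower was 9.37% and 12.1%, so isolated regions then had many calls both ways.

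As 1 value per library, the difference by spacing depended on 1 library and on the filter on low regions. Isolated minus close was -0.36, 0.26 and -0.15 in Early and -0.23, -0.34, -0.33 and -0.28 in Basal, so Early replicate 1 lay below every Basal library and the 2 others above. The difference of 0.21 had an exact permutation p of 0.343 (adjusted 0.509), and without Early replicate 2 it was 0.04. With no filter on low regions all Early libraries lay above all Basal libraries (means -0.46 in Early and -0.72 in Basal, difference 0.26, exact permutation p = 0.0571, the smallest possible). At a mean of at least 1.5 RPKM the difference was 0.04 with all 7 libraries (exact permutation p = 0.743). The share called higher without Early replicate 2 was 0.159% in the closest and 0.938% in the most isolated class.

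**Figure D1:**
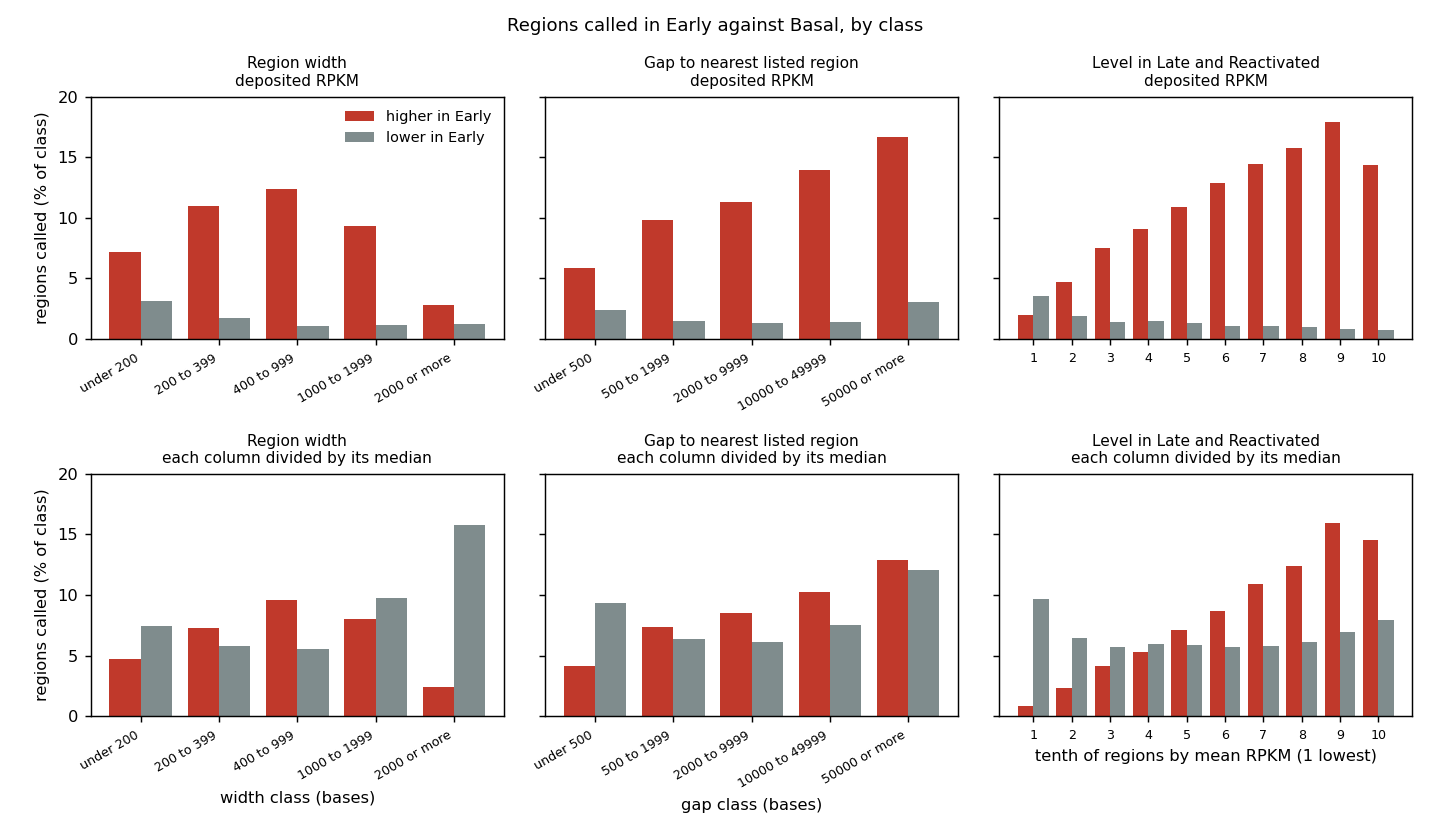
Share of tested regions (vertical axis, percent of the class) called higher (red) or lower (grey) in Early against Basal at an adjusted p under 0.05, by region width, by gap to the nearest listed region and by level in Late and Reactivated (10 classes of equal size, 1 lowest). The upper row uses deposited RPKM, and the lower row, after division by column medians, has 15.8% of regions of 2000 bases or more called lower.

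By level, the share called higher grew with how accessible a region was in the other groups, up to the 9th of 10 classes. Regions were ranked by mean RPKM of the 7 Late and Reactivated libraries. The ranking used no Early or Basal column, but the limit of 0.83 RPKM did, so a region low in Late and Reactivated could pass it only through Early or Basal. The lowest 10% of regions had 1.98% called higher and 3.56% lower, with a median log2 fold change of -0.05. Class 9 had 17.9% higher and 0.83% lower, with a median of 0.39. The highest 10% had 14.3% higher and 0.71% lower, with a median of 0.32. After division the medians were -0.26, 0.15 and 0.06 in these classes, so the lowest regions were then below and the high ones slightly above Basal. The value of the highest 10% after division turned to -0.07 without Early replicate 2.

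In the highest 10% the median was 1.73, 4.67 and 2.65 RPKM in Early and 2.89, 1.80, 1.60 and 2.23 RPKM in Basal. Basal replicate 1 was above Early replicates 1 and 3 there, and only Early replicate 2 was above all Basal libraries. In the lowest 10% it was 1.19, 1.08 and 1.13 RPKM in Early and 1.24, 1.20, 1.13 and 1.19 RPKM in Basal, a range that the limit on the mean of all 14 libraries bounds from below. Highest minus lowest 10% was 1.02 in Early and 0.62 in Basal on the log2 scale (difference 0.41, exact permutation p = 0.400, adjusted 0.509), and without Early replicate 2 the difference was 0.06. With no filter on low regions it was 1.66 in Early and 1.34 in Basal (difference 0.31, exact permutation p = 0.457), so the levels of this contrast depend on the filter.

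Ranking by the Basal libraries themselves shares columns with the difference and is given only as a description. The lowest 20% of regions in Basal had 33.8% called higher and 0% lower, and the highest 20% had 0.99% higher and 4.62% lower. The median log2 fold change was 0.63 in the lowest and -0.11 in the highest 20%, the opposite order to that by the other groups. Basal means and means of the other groups were only loosely related over regions (Spearman rho = 0.277 across regions, which are not independent).

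Along the autosomes, Early libraries were low near the telomeric end and slightly high near the centromeric start, relative to their own autosomal median. Each autosome was divided in 10 equal parts. The median log2 fold change was 0.29 in the first part, 0.22 to 0.27 in parts 2 to 8, 0.15 in part 9 and 0.08 in the last, where 6.22% were called higher and 2.49% lower. In the first part 12.9% were called higher and 1.40% lower, near the 13.0% and 0.91% of part 5. After division the first part had 9.68% higher and 5.11% lower, part 5 had 9.61% and 5.46%, and the last part 4.46% higher and 11.6% lower. Without Early replicate 2 the median on the deposited scale was 0.13 in the first and -0.05 in the last part.

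Library by library, the first part stood at 0.09, 0.04 and 0.02 in Early and at -0.03, 0.01, 0.00 and -0.01 in Basal, relative to the library's autosomal median. The last part stood at -0.09, -0.13 and -0.05 in Early and at 0.06, 0.04, 0.07 and 0.05 in Basal. Neither set overlapped between Early and Basal. First minus last part averaged 0.14 in Early and -0.06 in Basal, a difference of 0.20 (exact permutation p = 0.0571, the smallest possible, adjusted 0.133). The difference was 0.18 to 0.24 when each library was left out in turn, and 0.20 without chromosome 7, an alternative chosen after the data were seen.

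The end effect was unequal between chromosomes. Of 18 autosomes compared singly (all but chromosome 18), 14 had a lower median log2 fold change in the last than in the first part, and in 8 the last part was below 0. On chromosome 4 the medians were 0.37 in the first and -0.44 in the last part, where 12.7% of 463 regions were called lower, and 47.1% after division. On chromosome 5 they were 0.41 and -0.23. Chromosomes 7, 16, 17 and 19 ran the other way. The medians were -0.81 in the first and -0.19 in the last part of chromosome 7, and -0.56 and 0.09 in those of chromosome 19. They were -0.20 and 0.05 on chromosome 16, and -0.07 and 0.11 on chromosome 17.

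**Figure D2:**
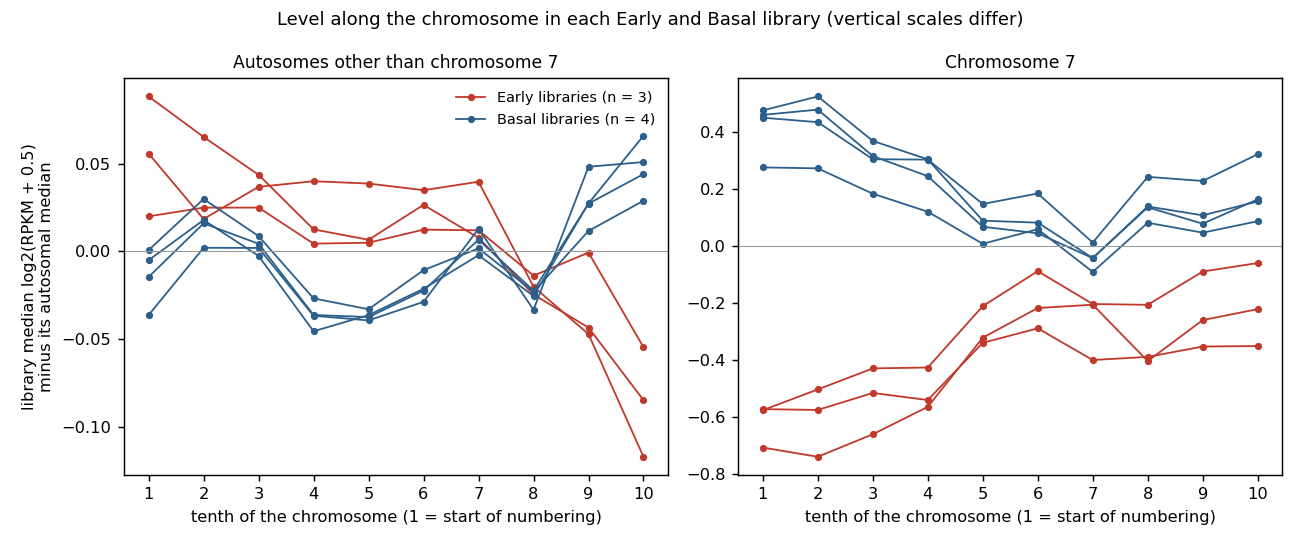
Median log2(RPKM + 0.5) of each of 10 equal parts of the chromosome minus the library's autosomal median (vertical axis), for each Early library (red, n = 3) and Basal library (blue, n = 4), on the autosomes other than chromosome 7 (left) and on chromosome 7 (right, another vertical scale). The Early lines lie above the Basal lines in part 1 and below them in part 10 on the left, and below them in all 10 parts on chromosome 7.

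Relative to each library's autosomal median, chromosome 7 was lower in Early than in Basal along its whole length, and most of all in its first 55 Mb. Earlier results of these data had singled it out, so it is described without independent support. Of 653 tested regions in the first 55 Mb, 335 (51.3%) were called lower and 0 higher, against 1.43% lower over all regions, and after division 537 (82.2%) were called lower. The median region there had 0.563, 0.908 and 0.774 RPKM in Early and 1.90, 1.33, 1.57 and 1.68 RPKM in Basal. Every Basal library was above every Early library, although Early replicate 2 had the largest share of reads in regions. Relative to the autosomal median the values were -0.56, -0.73 and -0.50 in Early and between 0.25 and 0.49 in Basal. Those of Late lay between -0.01 and 0.30 and those of Reactivated between 0.06 and 0.39.

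Beyond 55 Mb the difference was smaller, with 50 of 2769 regions called higher and 151 lower and a median log2 fold change of -0.15. Division gave 32 higher and 679 lower and a median of -0.38. Without Early replicate 1 the median on the deposited scale turned to 0.04. Chromosome 7 minus the other autosomes averaged -0.32 in Early and 0.16 in Basal (difference -0.48, exact permutation p = 0.0571, adjusted 0.133), and beyond 55 Mb -0.24 in Early and 0.10 in Basal (difference -0.34, exact permutation p = 0.0571, adjusted 0.133). Without Early replicate 2, 19.3% of regions in the first 55 Mb were called lower, against 0.266% of all regions.

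Fold changes also varied with how densely regions were listed. For this view, which was chosen after the data were seen and carries no test, autosomes were divided in windows of 5 Mb and the windows ranked by their number of listed regions. In the 20% of windows with fewest (11 to 219 regions), 451 of 11247 tested regions were called higher (4.01%) and 891 lower (7.92%), with a median log2 fold change of -0.10. In the 20% with most (513 to 721), 6342 of 53721 were called higher (11.8%) and 234 lower (0.44%), with a median of 0.29. The classes between had medians of 0.05, 0.24 and 0.29. After division, 25.4% of regions in the sparsest and 2.64% in the densest class were called lower, with medians of -0.34 and 0.07.

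Each Early library showed this separation. Relative to the autosomal median, the sparsest windows stood at -0.32, -0.22 and -0.22 in Early and at 0.11, 0.01, 0.09 and 0.07 in Basal, while Late lay between -0.04 and 0.07 and Reactivated between 0.05 and 0.25. The densest windows stood at 0.14, 0.05 and 0.08 in Early and 0.01, 0.06, 0.02 and 0.03 in Basal. Early replicate 2 lay with the other Early libraries in the sparsest windows, unlike in its level over all regions. Without it, the sparsest class had 2.36% of regions called lower and a median of -0.27, and the densest 0.03% and 0.15. Without Early replicate 1, the library lowest in reads in regions among Early, the median of the sparsest class turned to 0.06 on the deposited scale and was -0.28 after division.

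**Figure D3:**
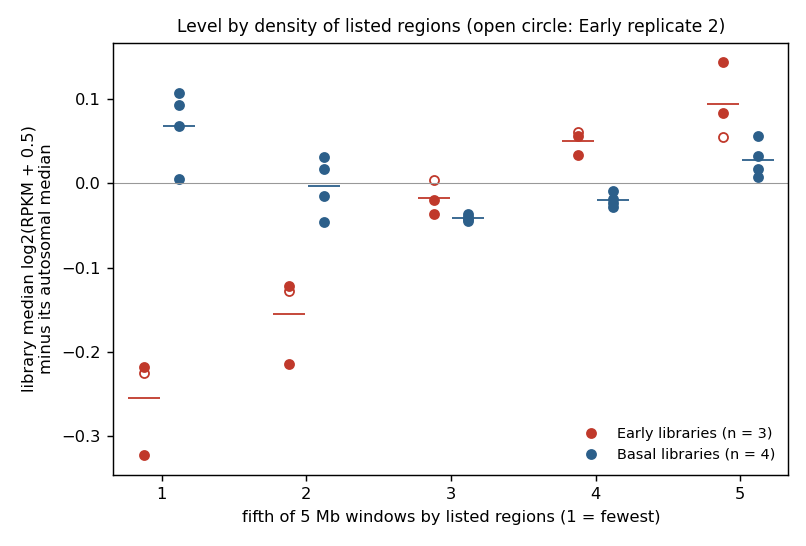
Median log2(RPKM + 0.5) of regions in 5 classes of 5 Mb autosomal windows of equal number, from fewest to most listed regions, minus the library's autosomal median (vertical axis). Red points are Early libraries (n = 3, open circle replicate 2), blue points Basal libraries (n = 4) and bars their means, and in the sparsest class the Early points lie between -0.32 and -0.22 and all Basal points above 0.

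Chromosomes 7 and 17 held part of the sparse windows. Without them, the sparsest class had 62 windows and 7339 regions, of which 3.99% were called lower and 5.01% higher, with a median log2 fold change of -0.02, and 18.9% were lower after division. Over all autosomes, with chromosomes 7 and 17 included, the separation was present at every level of accessibility. Median log2 fold changes in the sparsest and densest windows were -0.24 and 0.06 in the lowest 20% of regions by level in Late and Reactivated, and -0.12 and 0.49 in the highest 20%. It was also present at both chromosome ends, again with chromosomes 7 and 17 included. Neither split was made without those chromosomes. In the last 10% of the autosomes the medians were -0.09 in the sparsest and 0.23 in the densest windows, and in the first 10% they were 0.02 and 0.33. Few listed regions did not mean few genes on chromosomes 7 and 17. They had 22.4 and 36.5 tested regions per Mb, and 13.3 and 11.1 protein-coding genes per Mb. Over 18 autosomes (all but chromosome 18), the median log2 fold change had Pearson r = 0.763 with tested regions per Mb and -0.622 with genes per Mb. Spearman rho was 0.457 and -0.191.

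Density over a window and spacing of a single region ran in opposite directions. Regions in densely listed windows had the higher fold changes, whereas regions with the nearest neighbour far away did too. Adjacent tested regions had correlated log2 fold changes at every distance. Pearson r was 0.24 over 5131 pairs under 500 bases apart and 0.42 over 6709 pairs 50000 bases or more apart. Of those pairs, 57.6% and 69.1% had the same sign. More fold changes lay above 0 than below on the deposited scale, which raises such shares, and the share for unrelated pairs was not computed. After division by column medians r was 0.25 and 0.42, and 59.1% and 65.5% of the pairs had the same sign. These pairs share libraries and are not independent.

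Of 486 windows with at least 50 tested regions, 380 had a median log2 fold change above 0 and 106 below. Relative to the autosomal median, all Early libraries lay below all Basal libraries in 159 windows (32.7%) and above them in 153 (31.5%). After division those counts were 158 (32.5%) and 150 (30.9%), but a measure relative to the library's own median cancels such a division apart from the pseudocount. The number of listed regions in a window went with its median log2 fold change (Pearson r = 0.563, Spearman rho = 0.495 over 486 windows, which share libraries), and without chromosomes 7 and 17 the values were 0.474 and 0.398 over 443 windows.

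The windows with the highest medians were spread over several chromosomes. Windows were picked by these same fold changes, which favours calls in 1 direction. Over all regions 10.9% were called higher and 1.43% lower. The highest windows were 55 to 60 Mb of chromosome 5 (median log2 fold change 0.65, 92 of 244 regions called higher and 0 lower), 95 to 100 Mb of chromosome 2 (0.62, 96 of 275 higher and 1 lower) and 110 to 115 Mb of chromosome 3 (0.62, 106 of 297 higher and 0 lower). Next were 85 to 90 Mb of chromosome 2 (0.60, 37 of 102 higher and 0 lower) and 80 to 85 Mb of chromosome 9 (0.60, 116 of 384 higher and 0 lower). After division by column medians their medians were 0.38 to 0.45, with 23.2% to 34.0% called higher. Without Early replicate 2 their medians on the deposited scale were 0.38 to 0.45. In that fit 0 to 14 of their regions were called higher, against 773 of all 172024.

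The windows with the lowest medians were in the first part of chromosome 7 and on chromosome 17. The lowest was 15 to 20 Mb of chromosome 7, with a median of -0.90 and 69 of 91 regions called lower. At 0 to 5 Mb of chromosome 7 the median was -0.81 with 29 of 51 lower, at 50 to 55 Mb it was -0.81 with 78 of 134, and at 25 to 30 Mb -0.76 with 64 of 123. At 20 to 25 Mb of chromosome 17 it was -0.67, with 37 of 89 lower. None of these 5 windows had a region called higher, which their choice by lowest fold change favours. Their shares called lower were 41.6% to 75.8%, against 1.43% over all regions. After division by column medians their medians were -1.15 to -0.92, with 79.8% to 93.4% called lower. Without Early replicate 2 between 11 and 28 of their regions were still called lower, against 458 of all 172024.

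**Figure D4:**
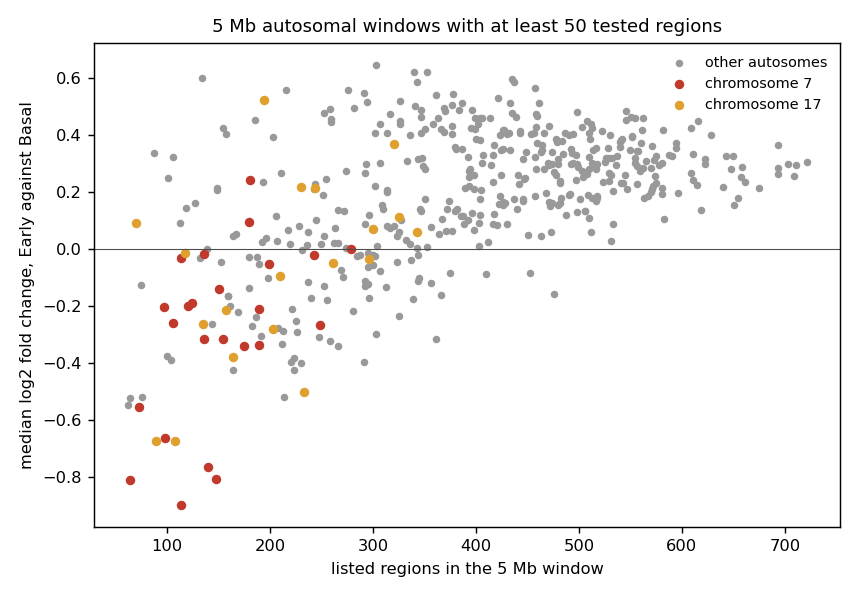
Median log2 fold change, Early against Basal, of 486 autosomal windows of 5 Mb (vertical axis) against the number of listed regions in the window (horizontal axis). Chromosome 7 (red) and chromosome 17 (orange) hold the lowest windows, down to -0.90, and no window with over 500 listed regions has a median below 0.

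Single regions were named by one rule, the largest called change up and down in each class of width, spacing and Basal level, among 8282 eligible regions (7347 up, 935 down). Eligible regions had no overlap between Early and Basal libraries, so their separation was fixed by the choice. The rule gave 21 regions, 11 up and 10 down, and 5 of those down lay on chromosome 7. In all 11 regions up, Early replicate 2 was the highest Early library. Coordinates are of the mm9 build as deposited, and the table does not say which gene, exon or intron a region lies in. Errors of log2 fold changes are limma's standard errors.

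A few of the regions up show the range of widths and levels. chr3:92226809-92227074, 265 bases wide, had 1.67, 5.77 and 3.20 RPKM in Early and 0.417, 0.348, 0.0695 and 0.278 RPKM in Basal. Those are 24, 83 and 46 reads in Early and 6, 5, 1 and 4 in Basal, where 1 is the lowest count that occurs. The log2 fold change was 2.27 ± 0.28 (limma adjusted p = 0.0023), every Early value was several times every Basal value, and Late (1.91 to 2.68 RPKM) and Reactivated (1.53 to 1.95 RPKM) lay above Basal too. chr2:99171866-99172774, 908 bases wide and 20989 bases from the nearest listed region, had 2.35, 8.32 and 2.92 RPKM in Early and 0.690, 0.507, 0.345 and 0.406 RPKM in Basal (2.17 ± 0.31, limma adjusted p = 0.00447). Among regions high in Basal, chr6:19232780-19233300 had 4.32, 21.7 and 6.66 RPKM in Early and 2.55, 1.28, 1.42 and 2.98 RPKM in Basal (1.90 ± 0.38, limma adjusted p = 0.00736).

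In the widest class the largest gain was smaller. chr5:6870978-6873809, 2831 bases wide, had 1.33, 4.04 and 1.76 RPKM in Early and 0.911, 0.547, 0.521 and 0.579 RPKM in Basal. Its log2 fold change was 1.23 ± 0.27 (limma adjusted p = 0.00956), and the call was lost without Early replicate 2 (limma adjusted p = 0.0667). Among isolated regions, chr9:11729843-11730251 lay 60507 bases from the nearest listed region. It had 2.62, 9.98 and 5.10 RPKM in Early and 1.22, 0.903, 0.768 and 1.35 RPKM in Basal (1.88 ± 0.30, limma adjusted p = 0.00509).

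Among the regions down, the narrowest lay near the end of chromosome 7. chr7:148748905-148749022, 117 bases wide, had 0.315, 0.158 and 0.630 RPKM in Early and 2.83, 2.20, 3.94 and 3.78 RPKM in Basal. Those are 1 to 4 reads in Early and 14 to 25 in Basal, with a log2 fold change of -2.10 ± 0.29 (limma adjusted p = 0.00377). Late had 1.47 to 3.64 RPKM, with 2 libraries below every Basal value, and Reactivated had 2.21 to 3.95 RPKM. Both lay above every Early value. chr7:56862016-56862216 had 0.369, 1.38 and 0.369 RPKM in Early and 3.22, 3.69, 2.67 and 2.49 RPKM in Basal (-1.63 ± 0.25, limma adjusted p = 0.00509).

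Outside chromosome 7, a pair of the regions down had high levels. Whether reads in this pair could also map to other places in the genome was not tested. chr17:39979978-39985726, 5748 bases wide and 329827 bases from the nearest listed region, had 30.1, 33.6 and 37.7 RPKM in Early and 90.7, 75.8, 89.7 and 86.8 RPKM in Basal. Its log2 fold change was -1.33 ± 0.34 (limma adjusted p = 0.0178), Late had 13.8 to 15.6 RPKM and Reactivated 92.5 ± 6.71 RPKM (SD, n = 3). The groups thus fell in pairs, Early and Late low and Basal and Reactivated high. chr3:5860345-5860825 had the same order, with 6.34, 8.60 and 8.79 RPKM in Early and 23.8, 19.8, 23.0 and 24.0 RPKM in Basal, 5.41 to 7.12 RPKM in Late and 17.5 to 30.9 RPKM in Reactivated (-1.47 ± 0.31, limma adjusted p = 0.00827). Both lost the call when the 7 libraries were fitted alone, and chr17:39979978-39985726 lost it with a replicate block too. chr19:6057423-6058551 had 0.637, 0.752 and 0.784 RPKM in Early and 3.05, 1.93, 3.09 and 2.86 RPKM in Basal (-1.39 ± 0.25, limma adjusted p = 0.00594).

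**Figure D5:**
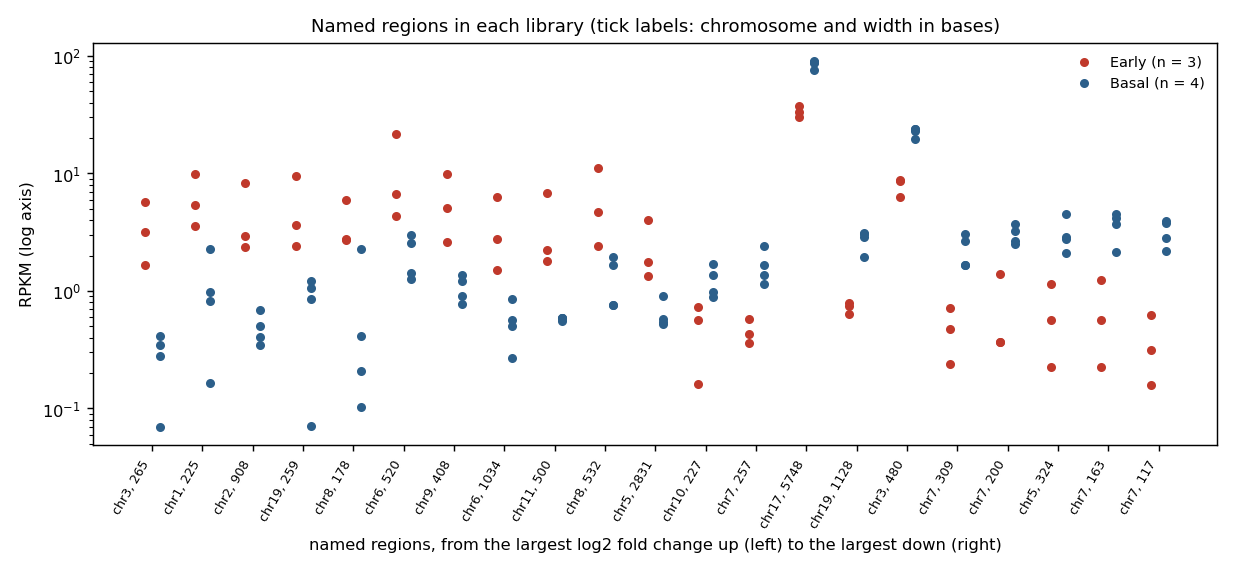
RPKM (log axis) of the 21 named regions in each Early library (red, n = 3) and each Basal library (blue, n = 4), ordered by log2 fold change, with chromosome and width in bases as tick labels. The 3 Early points lie above the 4 Basal points in the 11 regions on the left and below them in the 10 on the right. The rule that named the regions required this separation.

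Of the 21 named regions, 13 kept the call under all 17 alternatives, 8 lost it under at least 1 and none changed direction. Leaving out Early replicate 2 ended 6 of the calls. The smallest named difference was the least stable. chr10:107955547-107955774 had 0.568, 0.731 and 0.162 RPKM in Early and 0.893, 0.974, 1.70 and 1.38 RPKM in Basal, a log2 fold change of -0.84 ± 0.24 (limma adjusted p = 0.0286), and it lost the call under 8 alternatives.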

How the data were processed

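ATAC-seq was analysed in 3 Early and 4 Basal libraries, with 4 Late and 3 Reactivated libraries in the same fit. The authors deposited 1 table of RPKM values for 191271 regions. Per the submitters' processing notes, which state no role, the tools were DiffBind, MACS2, DESeq2, Bowtie2 2.0 and SAMtools, and the build was mm9. Region calling, removal of duplicates and shifting of cut sites, which bear on widths and on high regions, are not described in the sources used here. Values times width were whole multiples of 1 step per library (100% within 0.01), which gave reads and totals. No value was 0, and 2.27% to 3.11% of regions stood at 1 read. The libraries' totals ranged over 46134253 to 56251676 reads, and 7145415 to 15075081 of a library's reads lay in regions. The 95% Wilson interval of that share reached at most 0.0119 percentage points to either side and covers counting error only. Between replicates the mean chi-square of reads per region (1 for sampling noise) ran between 3.34 and 6.80 for Early and between 2.34 and 3.90 for Basal.

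Values were taken as log2(RPKM + 0.5), which understates changes of low regions. Limma 3.58.1 in R 4.3.3 (trend, robust) was fitted on all 14 libraries with 4 group means, with Benjamini-Hochberg adjustment over 172024 regions and a threshold of 0.05, and tested on simulated data. Values per library were compared by exact permutation tests. Width is end minus start, and gap the distance to the nearest listed region. Python 3.11.15, pandas 2.3.3, numpy 2.4.6, scipy 1.17.1, statsmodels 0.14.6 and matplotlib 3.10.9 did the rest. Named regions had an adjusted p under 0.05, no overlap of Early and Basal libraries and a mean log2 value over that of the median tested region. Of these the largest change up and down was taken in each of 5 width, 5 gap and 5 Basal level classes, and the 5 highest and 5 lowest windows of 5 Mb. Regions of chromosome 18 and of unplaced sequence were not named. The comparison, the classes and the lists were chosen with earlier results of these data known. The alternatives were other scalings, pseudocounts, filters and sets of libraries. No mm9 genome was used, so no sequence is shown.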

Additional observations from a re-analysis of the deposited data

Results flagged for a closer look

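Of 35 sets of 4 libraries examined, 3 held a library far from the other three, and chance puts about 1 set in 20 there. At chr8:59363111-59363289, Basal replicate 1 had 2.28 RPKM against 0.104 to 0.414 RPKM in the other Basal libraries, while Early had 2.69, 6.01 and 2.80 RPKM. At chr5:6870978-6873809, Basal replicate 1 had 0.911 RPKM against 0.521 to 0.579 RPKM in the other Basal libraries. At chr11:17189092-17189592, Basal replicate 4 had 0.553 RPKM and each of the other Basal libraries 0.590 RPKM, a gap of about 1 read. Groups of 3, such as Early, were not examined this way.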

How the results depend on the processing

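Regions called higher (18824) numbered 11356 after quantile normalization, 10074 at a mean of at least 1.5 RPKM, 5752 with the 7 libraries alone and 7665 with each library's share in regions as covariate. Regions called lower (2467) numbered 11381 after division by column medians, 10014 after quantile normalization, 880 at a mean of at least 1.5 RPKM, 620 with the 7 libraries alone and 5790 with the covariate. Leaving out single libraries gave 773 to 42733 higher and 458 to 3257 lower. Without Early replicate 1 there were 42733 higher. Without Early replicate 2 there were 773 higher and 458 lower, without Basal replicate 2 there were 9820 and 1624, without Basal replicate 3 there were 7056 and 1087, and without Basal replicate 4 there were 11962 and 1369. After division, leaving out single libraries gave 3260 to 17363 higher and 4355 to 13338 lower, chosen after the data were seen, with both lowest values without Early replicate 2. Replicate numbers did not pair the libraries (correlations of same-numbered libraries -0.26, -0.11 and -0.04), and a replicate block gave 10489 higher and 1186 lower. The median difference of all regions was 0.07 to 0.36 with single libraries left out and -6.88e-05 after quantile normalization, which equalizes the libraries by construction. Broad minus narrow was -0.12 to 0.10, with 0.10 without Early replicate 1 and 0.04 without Basal replicate 1. Isolated minus close was 0.04 to 0.35, first minus last part 0.18 to 0.24 and highest minus lowest level 0.06 to 0.72. Chromosome 7 against the other autosomes was -0.54 to -0.44, and beyond 55 Mb -0.39 to -0.29. With the covariate, the median fold change turned to -0.16 in regions of 2000 bases or more, -0.08 in the last part of autosomes and -0.04 in the highest 10% by level. Why these values changed was not tested. A median of 27 to 52 reads per tested region limits what single regions can show.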
